A study of Mus musculus with 36 samples.

Results

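The genotype by CP2 interaction asks whether CP2, an inhibitor of mitochondrial complex I, moved a gene differently in brains without Ndufs4 than in wild-type brains. It was computed as CP2 minus vehicle in the knockout (KO) less CP2 minus vehicle in wild type (WT), with the animals marked F and M in the titles weighted equally. All 36 of the 36 samples entered the fit, as 8 groups. Poly(A)-selected RNA came from hippocampus and cortex of mice 37 to 45 days old, after 3 days of CP2 or vehicle by gavage. The groups held 5 KO CP2 F, 5 KO vehicle F, 5 WT CP2 F, 5 WT vehicle F, 5 KO CP2 M, 3 KO vehicle M, 5 WT CP2 M and 3 WT vehicle M samples. Strain, CP2 dose and the extent of the Ndufs4 deletion across cell types are not given in the sources used here. The labels do not state that each library is a separate animal, so the p-values measure the spread between these libraries.

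Complex I takes electrons from NADH into the respiratory chain and pumps protons across the inner mitochondrial membrane. Ndufs4 encodes one of its accessory subunits, and mice without it develop an encephalopathy used as a model of Leigh syndrome. An interaction above 0 means that CP2 minus vehicle was higher in KO than in WT, whether KO gained or WT lost, so each gene was also split into its arms. Values are log2 fold differences, and levels are CPM (counts-per-million, scaled by TMM factors), which compare a gene between samples and not genes with each other.

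Ndufs4 was read first as a check of the labels. It stood at 39.1, 35.8, 36.9, 29.6 and 36.7 CPM in KO CP2 M, 27.4, 27.5 and 29.5 CPM in KO vehicle M, 43.6, 45.2, 42.3, 48.5 and 46.5 CPM in WT CP2 M, and 44.9, 50.1 and 38.9 CPM in WT vehicle M. In F, Ndufs4 ranged from 31.3 to 37.4 CPM in KO CP2, from 30.2 to 37.1 CPM in KO vehicle, from 45.9 to 62.8 CPM in WT CP2 and from 45.2 to 58.9 CPM in WT vehicle. KO lay below WT without overlap in F, while in M the highest KO CP2 library passed the lowest WT vehicle library. By edgeR's quasi-likelihood test, Ndufs4 was lower in KO than in WT by -0.65 ± 0.07 (SE; adjusted p = 3.75e-07) with vehicle and by -0.45 ± 0.06 (adjusted p = 3.21e-06) with CP2. Reads were summed per gene, so the deleted exons were not seen apart. Its interaction was 0.20 ± 0.09 (SE; adjusted p = 0.304), which did not pass the 0.05 threshold.

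Gene counts summed to between 46124548 and 88559920 per library. Markers of both dissected regions were present, with the summed hippocampal CA genes between 810.2 and 1208 CPM and the cortical layer genes between 879.5 and 1264 CPM. The CA level moved with the groups. In M it was 1106 to 1165 CPM in KO vehicle, 833.4 to 861.1 CPM in WT vehicle, 974.9 to 1059 CPM in KO CP2 and 948.2 to 1068 CPM in WT CP2. In F, KO CP2 (1019 to 1208 CPM) lay above KO vehicle (810.2 to 998.4 CPM). The median interaction of the CA list was 0.31 in F and -0.51 in M. Fits with a CA score as a covariate are given at the end. Choroid plexus genes (523.9 to 5151 CPM) and striatal projection neuron genes (594.4 to 2426 CPM) varied more between libraries of 1 group. Xist, transcribed from an inactive X chromosome, lay between 439 and 798 CPM in the 20 F libraries and at 0.833 CPM or less in 15 of the 16 M libraries. The KO CP2 M library L291 had 47.3 CPM of Xist together with 80.8 CPM of the Y-linked gene Ddx3y. A second KO CP2 M library, L266, had 5.18% of its reads outside annotated genes, the lowest of the M libraries, and its most abundant gene took 1.01% of counts against 4.79% to 5.87% in the other 4 libraries of its group.

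The M groups differed among themselves in a way that bears on every result that follows. Reads outside annotated genes made up 12.1% ± 0.885 (SD, n = 3) in KO vehicle M, 11.5% ± 1.64 (SD, n = 5) in WT CP2 M, 10.2% ± 1.22 (SD, n = 3) in WT vehicle M and 7.33% ± 1.40 (SD, n = 5) in KO CP2 M. In F it was 7.54% ± 2.13 in KO CP2, 9.24% ± 2.56 in KO vehicle, 6.02% ± 0.714 in WT CP2 and 5.995% ± 0.740 in WT vehicle (SD, n = 5 each). The mean of KO CP2 M lay among those of the F groups and below those of the other M groups, although its library L298 (9.07%) met the WT CP2 M library L267 (9.05%) and KO vehicle F reached 11.7%. The same interaction taken on this share was -6.04 percentage points in M and -1.73 in F. The share of counts taken by the most abundant gene divided the libraries otherwise. It was 1.015% to 5.87% in KO CP2 M, where only L266 lay in the F range. In the other M groups it was 3.54% to 4.34% in KO vehicle, 3.47% to 6.01% in WT CP2 and 1.60% to 3.90% in WT vehicle. The F libraries lay between 0.856% and 3.20%.

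The expression values followed the division seen in the reads outside genes. Of the 25601 genes tested, 67.3% had a KO CP2 M mean nearer to the mean of the F groups than to the mean of the other M groups, against 42.8% for KO vehicle M, 38.5% for WT CP2 M and 42.7% for WT vehicle M. Among the 183 genes called for the interaction it was 178 genes (97.3%) for KO CP2 M, 23 for KO vehicle M, 15 for WT CP2 M and 59 for WT vehicle M. The same values made these calls, so the counts over the 183 genes describe them and are no separate support. This difference between M libraries and an effect of CP2 in KO cannot be told apart within M. With the share of reads outside genes added to the edgeR fit as a covariate, 0 genes were called (1870 at an unadjusted p under 0.05).

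**Figure D1:**
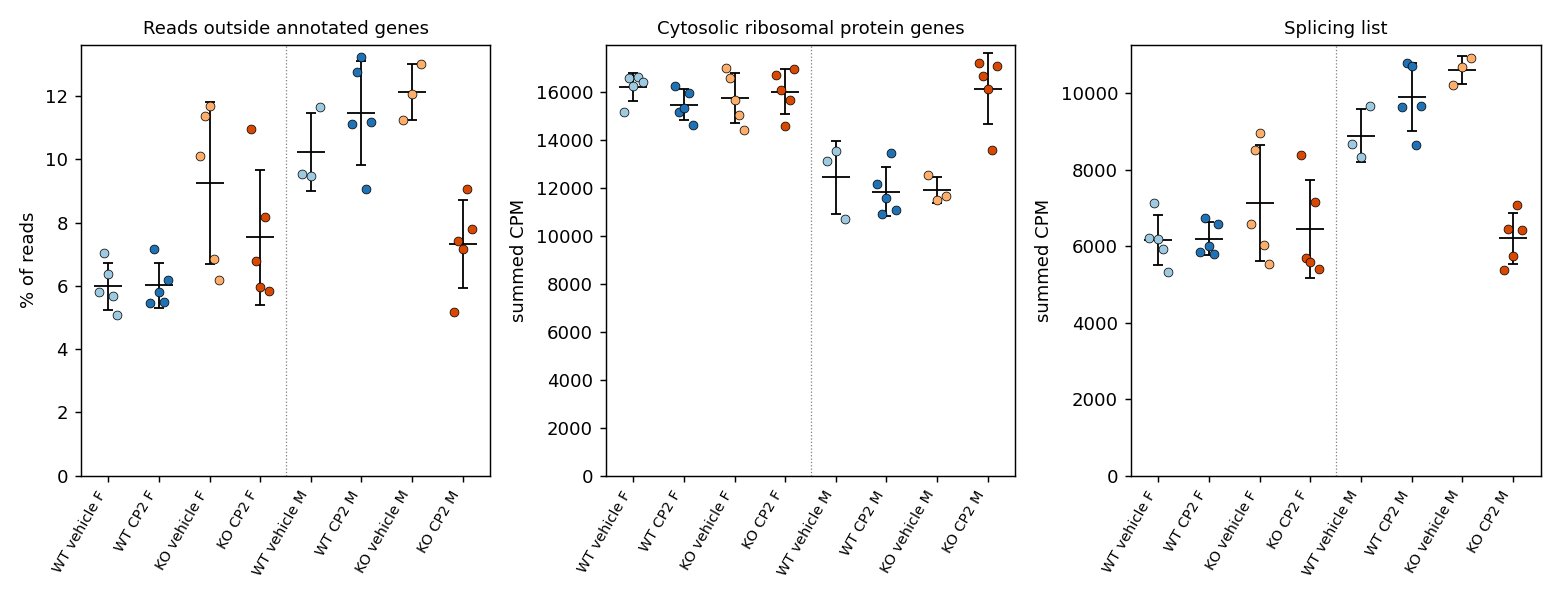
Each point is 1 library, with the group mean (bar) and SD (whiskers), for the share of reads outside annotated genes in percent, the summed CPM of 79 cytosolic ribosomal protein genes and the summed CPM of the 31-gene splicing list. The mean of KO CP2 M lies nearer to the F means than those of the other M groups, which lie higher, lower and higher in turn; in the first panel single libraries of M groups meet.

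By edgeR's quasi-likelihood test with Benjamini-Hochberg adjustment, 183 of 25601 genes (0.715%) passed the threshold for the averaged interaction, and 3736 had an unadjusted p under 0.05. Of the 183 called, 81 (0.316%) lay above 0 and 102 (0.398%) below it. Over all genes tested 12628 lay above 0 and 12973 below it, and the median was -0.0048. In M alone 507 genes passed (1.98%), of which 42.6% lay above 0. In F alone 0 genes passed (0%), with 1478 at an unadjusted p under 0.05, a smallest adjusted p of 0.411, 4 genes by DESeq2 and 0 by limma voom. The difference between the letters passed for 2 genes (0.00781%), Mical2 and Zbtb18, so for the other genes a difference between F and M was not shown.

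The arms of the interaction were unequal. CP2 against vehicle passed for 1002 genes in KO (3.91%), 532 higher and 470 lower, and for 0 genes in WT (0%), where 1031 genes had an unadjusted p under 0.05 and DESeq2 also called 0. Taken by letter, CP2 in KO passed for 22 genes in F and 1306 in M. Read the other way, KO against WT passed for 1708 genes with vehicle (6.67%) and 2972 genes with CP2 (11.6%). These comparisons share libraries with the interaction and are given as its parts.

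**Figure D2:**
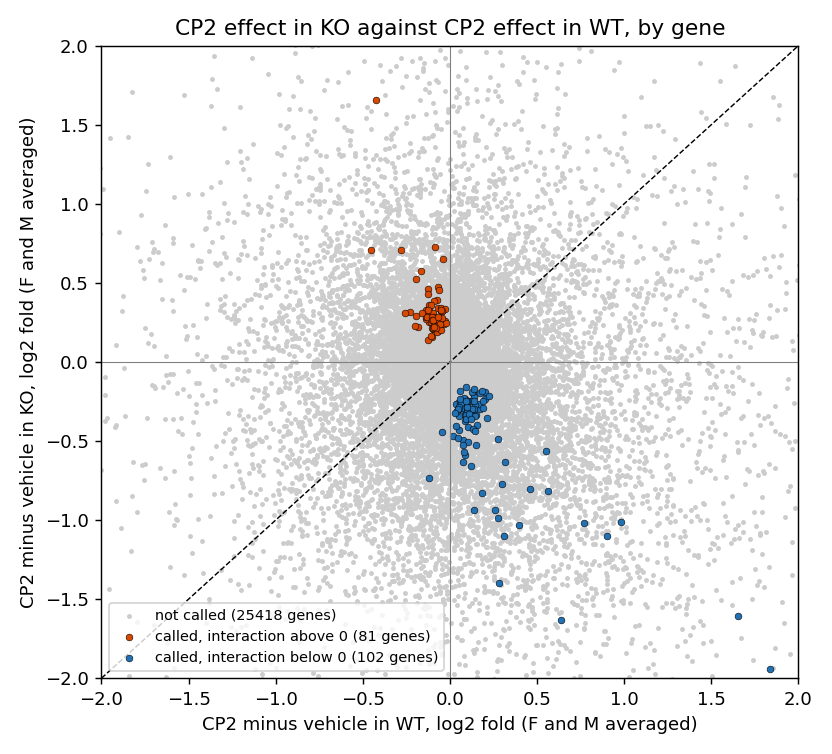
Each point is a gene, with CP2 minus vehicle in WT (log2 fold, horizontal) against CP2 minus vehicle in KO (log2 fold, vertical), F and M averaged, and the dashed line marks equal effects. The 81 called genes above 0 (orange) and the 102 below 0 (blue) lie off the line mostly along the vertical axis; 634 genes, 11 of them called, fall outside the plotted range of 2 either way.

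For each called gene the group that carried the interaction was described, with no test since these values made the calls. The KO arm made up more than 2/3 of the interaction in 137 of the 183 genes, both arms shared it in 46, and the WT arm led in none, whereas over all genes tested the KO arm led in 49.98% and the WT arm in 28.01%. Among the 4 genotype and treatment groups, KO CP2 stood farthest from the other 3 in 107 called genes, as the highest in 44 and the lowest in 63. KO vehicle stood farthest in 72, as the lowest in 35 and the highest in 37, and a WT group in 4. Over all genes tested KO CP2 was farthest as the highest in 13.4% and the lowest in 14.3%, and KO vehicle as the highest in 18.1% and the lowest in 17.5%. Within M, KO CP2 was the farthest group in 138 called genes, the highest in 54 and the lowest in 84 (all genes tested, 16.1% and 18.7%).

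The M samples carried most of the size. M made up more than 2/3 of the summed interaction in 135 called genes, F in 3, and both shared it in 45; over all genes tested these shares were 52.4%, 26.4% and 21.2%. The 81 genes above 0 had a median of 0.16 in F and 0.59 in M, and the 102 below 0 a median of -0.25 in F and -0.71 in M. KO CP2 M and KO vehicle M did not overlap in 164 of the 183 called genes (all genes tested, 15.3%), while KO CP2 F and KO vehicle F did not overlap in 7 (all genes tested, 1.04%). The M comparison set 5 libraries against 3 and the F comparison 5 against 5, so complete separation comes more readily in M. The interaction was larger in size in M than in F for 169 called genes (all genes tested, 64.5%).

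Ribosomal protein genes, which encode the protein part of the cytosolic ribosome, were the largest group above 0. Of 79 tested, 27 rose in the interaction and none fell, and all 79 lay above 0, between 0.16 and 0.48, with a median of 0.30 against -0.0048 for all genes tested. The median was 0.09 in F and 0.51 in M, and 44 passed in M. Over all genes tested 0.316% were called above 0 for the averaged interaction. Its parts were a median CP2 effect of 0.23 in KO and -0.07 in WT. Several of these genes have near-identical pseudogene copies, so how reads were assigned to each is uncertain. Transcript length was not matched in the comparison with all genes tested. Protein-coding genes of the shortest length decile (up to 1521 nt) had a median of 0.18, with 0.08 in F and 0.28 in M. The part of length in the ribosomal median was not tested.

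Rps12, a protein of the small ribosomal subunit, had the smallest p of the list. Rps12 stood at 226, 223, 215.8, 166 and 241 CPM in KO CP2 M, 150, 129 and 127 CPM in KO vehicle M, 139, 120, 132, 155 and 124 CPM in WT CP2 M, and 149, 166 and 123 CPM in WT vehicle M. In F it was 217, 188, 174, 196 and 219 CPM in KO CP2, 200, 209, 176, 173 and 195 CPM in KO vehicle, 177, 193, 206, 214 and 191 CPM in WT CP2, and 215, 204, 215, 217 and 201.2 CPM in WT vehicle. In M the KO CP2 libraries lay above all others, the lowest of them (166.5 CPM) just above the highest WT vehicle library (165.7 CPM). In F all 4 groups overlapped. The interaction of Rps12 was 0.47 ± 0.09 (SE; edgeR adjusted p = 0.0198), 0.16 in F and 0.79 in M.

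The summed level of the 79 genes showed the same layout. It was 17200, 16650, 16120, 13580 and 17080 CPM in KO CP2 M, 12510, 11500 and 11670 CPM in KO vehicle M, 12170, 10890, 11580, 13440 and 11080 CPM in WT CP2 M, and 13090, 13520 and 10690 CPM in WT vehicle M. KO CP2 M did not overlap any other M group. The 20 F libraries lay between 14410 and 16970 CPM. Leaving out L266 and L291 together left 1 called ribosomal protein gene (33 genes in all), with the list's median at 0.28.

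Many ribosomal protein genes start transcription in a run of pyrimidines, so the bases around their starts are shown for 3 genes that passed. Each run holds 20 bases before and 20 from the start, on the gene's strand, from RefSeq on GRCm38.p6, and capitals mark CTTTC. Their places are chr7:109519175-109519214 (plus strand) for Rpl27a, chr9:44407694-44407733 (plus strand) for Rps25 and chr4:86857348-86857387 (minus strand) for Rps6.
Rpl27a: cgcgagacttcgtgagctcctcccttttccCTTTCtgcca
Rps25: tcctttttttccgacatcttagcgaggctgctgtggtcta
Rps6: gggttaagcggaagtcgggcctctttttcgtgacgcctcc
The letters CTTTC were present on the gene's strand in 27.9% of the 68 such windows of 58 ribosomal protein genes tested, in 20.8% of the 24 windows of those that passed, and in 5.50% of the 32851 windows of all genes in the table. On the other strand the shares were 5.88%, 4.17% and 4.86%. Among the other genes above 0, 1.82% of windows held the letters, and among those below 0 3.30%. A match describes the letters and is no site.

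Respiratory chain genes lay above 0 by less, and few passed. Of 37 nuclear genes for complexes II to V, 2 rose and none fell, all 37 lay above 0, and the median was 0.24 (0.13 in F, 0.31 in M). The 2 were Uqcrh, a hinge subunit of complex III (0.33 ± 0.08, SE; edgeR adjusted p = 0.0436), and Sdhc, a membrane anchor of complex II (0.26 ± 0.07; adjusted p = 0.0466). Of 35 nuclear complex I genes, 0 passed in edgeR or DESeq2 (16 at an unadjusted p under 0.05; 5 passed by limma voom), with all 35 above 0 and a median of 0.20. Ndufs5, the member with the smallest p, was at 0.32 ± 0.10 (adjusted p = 0.107). Of the 13 protein genes of mitochondrial DNA 0 passed (4 unadjusted; 0 in DESeq2), with a median of 0.18. Over all 25601 genes tested 0.316% were called above 0 by edgeR and 3736 had an unadjusted p under 0.05. By limma voom 921 were called, 392 of them above 0. Protein-coding genes with short transcripts lay above 0 as a whole, with a median of 0.18 in the shortest decile (up to 1521 nt). Ndufs5 (680 nt) and Uqcrh (801 nt) are that short and Sdhc (3171 nt) is not. The part of length in these list medians was not tested.

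Uqcrh shows how small these differences were beside the spread. It stood at 136, 128, 132, 99.3 and 134 CPM in KO CP2 M, 96.4, 99.9 and 88.4 CPM in KO vehicle M, 117, 112, 107, 120 and 102 CPM in WT CP2 M, and 122, 125 and 96.0 CPM in WT vehicle M. In F Uqcrh ranged from 116.1 to 134.3 CPM in KO CP2, from 106.4 to 128.5 CPM in KO vehicle, from 121.9 to 144 CPM in WT CP2 and from 130.9 to 142 CPM in WT vehicle. The KO vehicle groups were the lowest in both letters, and KO CP2 overlapped KO vehicle in both, in M through library L298. Among mitochondrial ribosomal proteins 1 of 77 rose, Mrpl28 (0.41 ± 0.09; adjusted p = 0.0222).

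Single genes of glial and metabolic function were among the largest above 0. S100b, a calcium-binding protein made mainly by astrocytes, stood at 162, 143, 138, 132 and 139 CPM in KO CP2 M, 69.3, 91.3 and 78.9 CPM in KO vehicle M, 132, 102, 104, 121 and 101 CPM in WT CP2 M, and 121, 128 and 96.2 CPM in WT vehicle M. In F S100b was 178, 152, 122, 199 and 160 CPM in KO CP2, 152, 112, 86.6, 115 and 122 CPM in KO vehicle, 127, 130, 158, 141 and 128 CPM in WT CP2, and 149, 118, 146, 149 and 143 CPM in WT vehicle. KO vehicle held the lowest libraries in both letters and KO CP2 the highest, without overlap between them in M and with overlap in F. The interaction was 0.69 ± 0.13 (SE; edgeR adjusted p = 0.0198), with a CP2 effect of 0.65 in KO and -0.04 in WT. It was the 1 gene of 22 on the astrocyte list to pass, and the list's median was 0.14.

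Mdk, the heparin-binding growth factor midkine, was also lowest in KO vehicle. Its level was 15.6, 15.3, 12.4, 11.6 and 12.5 CPM in KO CP2 M, 6.81, 7.97 and 5.29 CPM in KO vehicle M, 14.8, 11.6, 11.1, 13.6 and 8.37 CPM in WT CP2 M, and 17.4, 14.5 and 9.12 CPM in WT vehicle M. In F Mdk was 15.4, 11.6, 11.6, 15.8 and 16.3 CPM in KO CP2, 12.8, 10.6, 8.05, 10.7 and 9.85 CPM in KO vehicle, 17.1, 14.9, 13.6, 12.6 and 11.2 CPM in WT CP2, and 13.5, 12.7, 14.3, 14.04 and 13.3 CPM in WT vehicle. KO vehicle was the group apart, below WT without overlap in M, and KO CP2 reached the WT range in both letters. The interaction was 0.81 ± 0.16 (SE; edgeR adjusted p = 0.0205), from a genotype difference of -0.71 with vehicle and 0.10 with CP2. Other genes of this kind, with KO vehicle the lowest group, were Plekhb1, a pleckstrin homology domain protein (0.55), the secreted factor Metrn (0.59) and Rida, an imine deaminase (0.54).

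Homeostatic microglia genes had medians of like size in F and M. Of 26 homeostatic microglia genes 2 rose, 25 lay above 0, and the median was 0.35 in F and 0.44 in M. Over all genes tested 0.316% were called above 0, and 12628 of 25601 lay above 0. The 2 were Cd180, a receptor related to the Toll-like family (0.99 ± 0.25, SE; edgeR adjusted p = 0.0465), and its partner protein Ly86 (0.72 ± 0.17; adjusted p = 0.0358). Whether more microglia or more RNA per cell gave such values cannot be told apart in bulk tissue. None of 25 disease-associated microglia genes passed in edgeR (12 unadjusted, against 3736 of 25601 over all genes tested), and 2 passed in DESeq2. The median of that list was 0.25, with 0.17 in F and 0.38 in M.

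Cd180 stood at 4.59, 3.997, 3.96, 5.68 and 5.40 CPM in KO CP2 M, 4.01, 2.07 and 3.13 CPM in KO vehicle M, 2.12, 1.46, 1.59, 3.08 and 2.49 CPM in WT CP2 M, and 2.89, 1.59 and 3.002 CPM in WT vehicle M. In F it was 3.55, 3.34, 4.04, 5.11 and 4.08 CPM in KO CP2, 2.24, 1.55, 3.13, 2.45 and 2.21 CPM in KO vehicle, 2.03, 2.61, 1.14, 2.12 and 1.498 CPM in WT CP2, and 2.76, 1.96, 2.82, 2.03 and 2.33 CPM in WT vehicle. KO CP2 lay above every other F library, and above all M libraries of the other groups but 1 KO vehicle library. Its interaction was 1.14 in F and 0.84 in M.

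Dnaic2, an intermediate chain of the dynein that drives motile cilia, had the largest interaction above 0 among called genes with a mean of at least 1 CPM. It was 5.03, 5.48, 6.33, 4.07 and 4.51 CPM in KO CP2 M, 2.68, 2.22 and 1.82 CPM in KO vehicle M, 4.02, 3.43, 2.76, 4.19 and 3.20 CPM in WT CP2 M, and 5.27, 4.21 and 2.77 CPM in WT vehicle M. In F Dnaic2 was 5.799, 3.84, 3.04, 4.68 and 5.92 CPM in KO CP2, 3.90, 5.19, 3.03, 4.08 and 3.52 CPM in KO vehicle, 4.10, 3.95, 3.05, 3.46 and 4.03 CPM in WT CP2, and 5.56, 9.21, 7.31, 4.68 and 3.22 CPM in WT vehicle. Both arms moved apart: KO CP2 M lay above KO vehicle M without overlap, and WT vehicle held the highest F libraries. The interaction was 1.16 ± 0.23 (SE; edgeR adjusted p = 0.0198), from 0.71 in KO and -0.45 in WT. It was the 1 of 30 ependymal and motile cilia genes to pass, with 28 above 0 and a median of 0.61, and the list's summed level ranged from 122.4 to 286 CPM over all libraries.

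**Figure D3:**
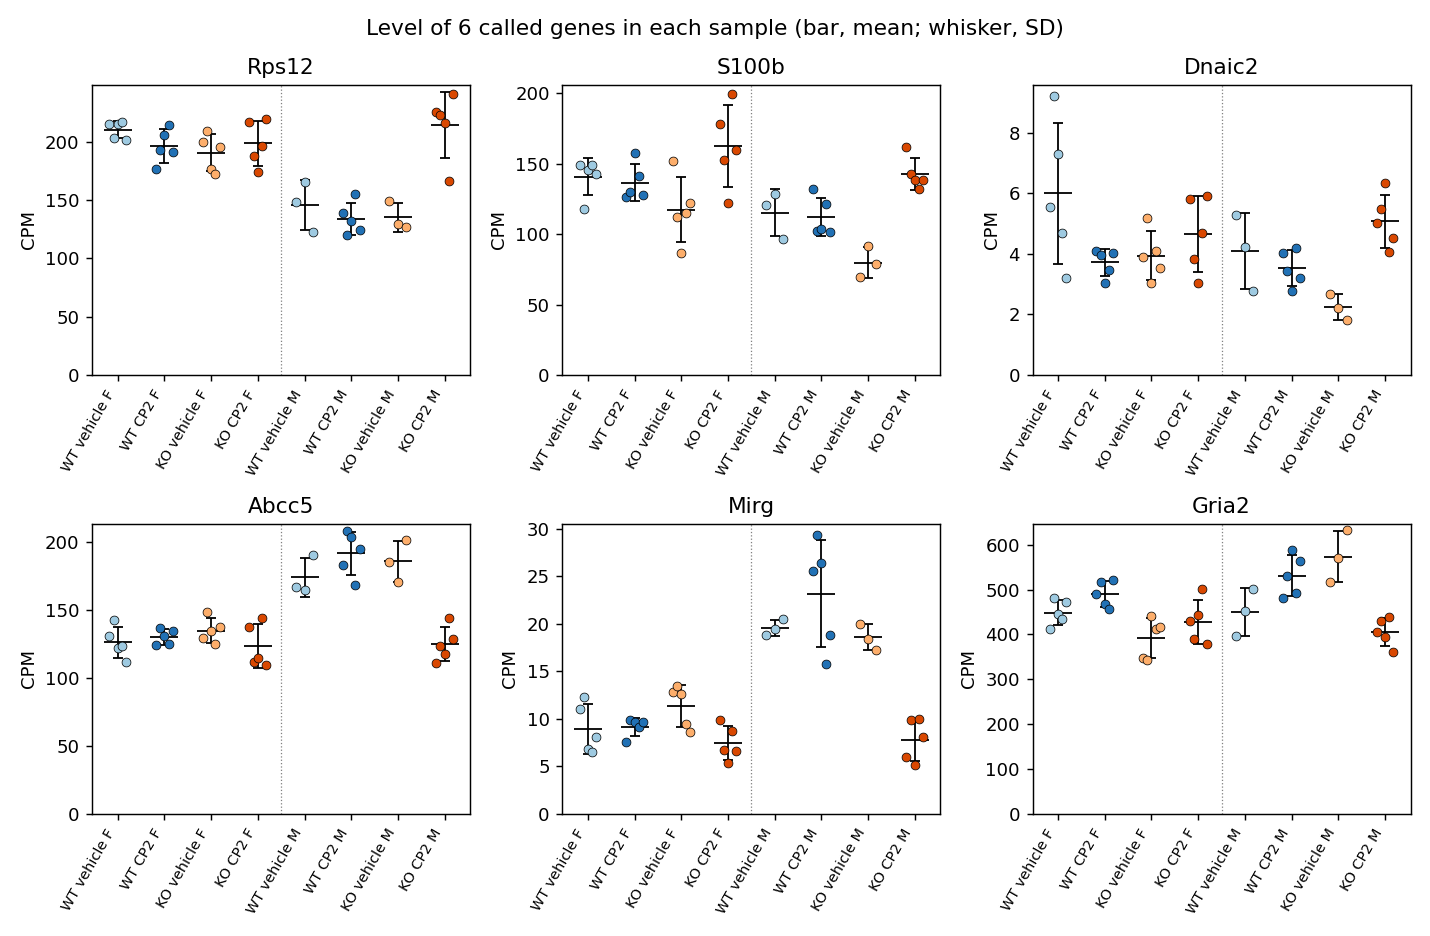
CPM of Rps12, S100b, Dnaic2, Abcc5, Mirg and Gria2 in each library by group, with the group mean (bar) and SD (whiskers), F groups left of the dotted line and M groups right of it. In M the KO CP2 libraries stand apart from KO vehicle for all 6 genes, and in F these 2 groups overlap.

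The genes below 0 included transcripts of RNA processing. On the list of splicing factors, which also holds the nuclear RNAs Malat1, Neat1, Meg3 and Miat, 5 of 31 fell, none rose, and 30 lay below 0, with a median of -0.25 (-0.07 in F, -0.48 in M). The 5 were Miat, the kinase Clk4 that phosphorylates SR splicing factors, the RNA-binding proteins Luc7l3 and Rbm5, and the helicase Ddx17. In M alone 13 fell. Over all genes tested 0.398% were called below 0 for the averaged interaction, and 12973 of 25601 lay below 0. Of 32 chromatin and transcription regulators 2 fell, Med12 of the Mediator complex (-0.53 ± 0.13, SE; edgeR adjusted p = 0.0459) and L3mbtl1, a reader of methylated histones (-0.61 ± 0.14; adjusted p = 0.0242), and 30 lay below 0.

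Miat, a long noncoding RNA of the nucleus, had the largest difference of the splicing list. It stood at 102, 107, 102, 141 and 124 CPM in KO CP2 M, 284.6, 304 and 333 CPM in KO vehicle M, 230, 318, 310.9, 230 and 263.1 CPM in WT CP2 M, and 203, 207 and 242 CPM in WT vehicle M. In F Miat was 180, 125, 112, 177 and 100 CPM in KO CP2, 139, 193, 274, 120 and 95.5 CPM in KO vehicle, 133, 169, 122, 112 and 150 CPM in WT CP2, and 111, 191, 125, 132 and 101 CPM in WT vehicle. KO CP2 M lay below every other M library and within the range of the F libraries. The interaction was -1.02 ± 0.23 (SE; edgeR adjusted p = 0.0355), -0.30 in F and -1.73 in M.

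Mirg, a noncoding RNA of the imprinted Dlk1-Dio3 cluster, was 5.93, 9.84, 5.16, 9.96 and 8.06 CPM in KO CP2 M, 19.99, 18.4 and 17.3 CPM in KO vehicle M, 25.6, 29.3, 26.3, 15.7 and 18.8 CPM in WT CP2 M, and 18.8, 19.5 and 20.5 CPM in WT vehicle M. In F Mirg was 9.85, 6.73, 5.33, 8.70 and 6.64 CPM in KO CP2, 12.9, 13.4, 12.6, 9.44 and 8.55 CPM in KO vehicle, 7.57, 9.82, 9.62, 9.12 and 9.69 CPM in WT CP2, and 10.999, 12.3, 6.81, 6.46 and 8.06 CPM in WT vehicle. KO CP2 M was again apart from the other M groups, with 4 libraries within the F range and 1 below it, and in F the KO CP2 and KO vehicle libraries overlapped. Its interaction was -1.07 ± 0.21 (SE; edgeR adjusted p = 0.0198), -0.65 in F and -1.498 in M.

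Abcc5, an organic anion transporter, was 111, 123, 117, 144 and 129 CPM in KO CP2 M, 185, 171 and 201.2 CPM in KO vehicle M, 183, 208, 203, 169 and 195 CPM in WT CP2 M, and 167, 165 and 190 CPM in WT vehicle M. The 20 F libraries of Abcc5 lay between 109.7 and 148.3 CPM with all groups overlapping, and KO CP2 M fell within that range. The interaction was -0.44 ± 0.08 (SE; edgeR adjusted p = 0.0198), -0.17 in F and -0.71 in M.

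Gria2, the AMPA receptor subunit that sets calcium permeability, was the 1 of 34 glutamate and GABA-A receptor genes to pass (-0.37 ± 0.09, SE; edgeR adjusted p = 0.0341). Gria2 stood at 404, 429, 393, 439 and 361 CPM in KO CP2 M, 518, 570 and 632 CPM in KO vehicle M, 481, 531, 588, 492 and 563 CPM in WT CP2 M, and 395, 453 and 502 CPM in WT vehicle M. Its interaction was -0.74 in M and 0.00 in F, the median of its list was -0.05, and its arms were equal, -0.19 in KO and 0.18 in WT. Celsr3, a cadherin of axon guidance, was at -0.67 ± 0.13 (adjusted p = 0.0198), and Tspoap1, a presynaptic scaffold that binds RIM proteins, at -0.61 ± 0.12 (adjusted p = 0.0198).

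Further genes below 0 were Adam33, a membrane metalloprotease (-1.27), Atcayos, an antisense transcript at Atcay (-1.43), Col19a1, a collagen (-0.76), Zfp57, a zinc finger protein of imprinted loci (-0.71), Ssh3, a cofilin phosphatase (-0.65), Snapc4, a subunit of the complex that activates small nuclear RNA genes (-0.60), Hook1, a dynein adaptor (-0.58), Khdc4, a KH-domain RNA-binding protein (-0.56), and Crebzf, a bZIP factor (-0.38). Whether the counting used strand is not given in the sources used here, so reads of Atcayos and Atcay cannot be told apart. Snapc4, Hook1, Khdc4, Zfp57 and Col19a1 had KO vehicle as the group farthest from the others, above them, and the others named here had KO CP2, below them. Further genes above 0 were Tnni1, slow troponin I (0.74), Ogg1, which removes oxidised guanine from DNA (0.57), the lipases Pla2g16 (0.48) and Abhd4 (0.46), the nuclear protein Anp32b (0.42), Fez2 (0.39), and Prdx1, a peroxiredoxin and the 1 of 20 NRF2 targets to pass (0.29).

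**Figure D4:**
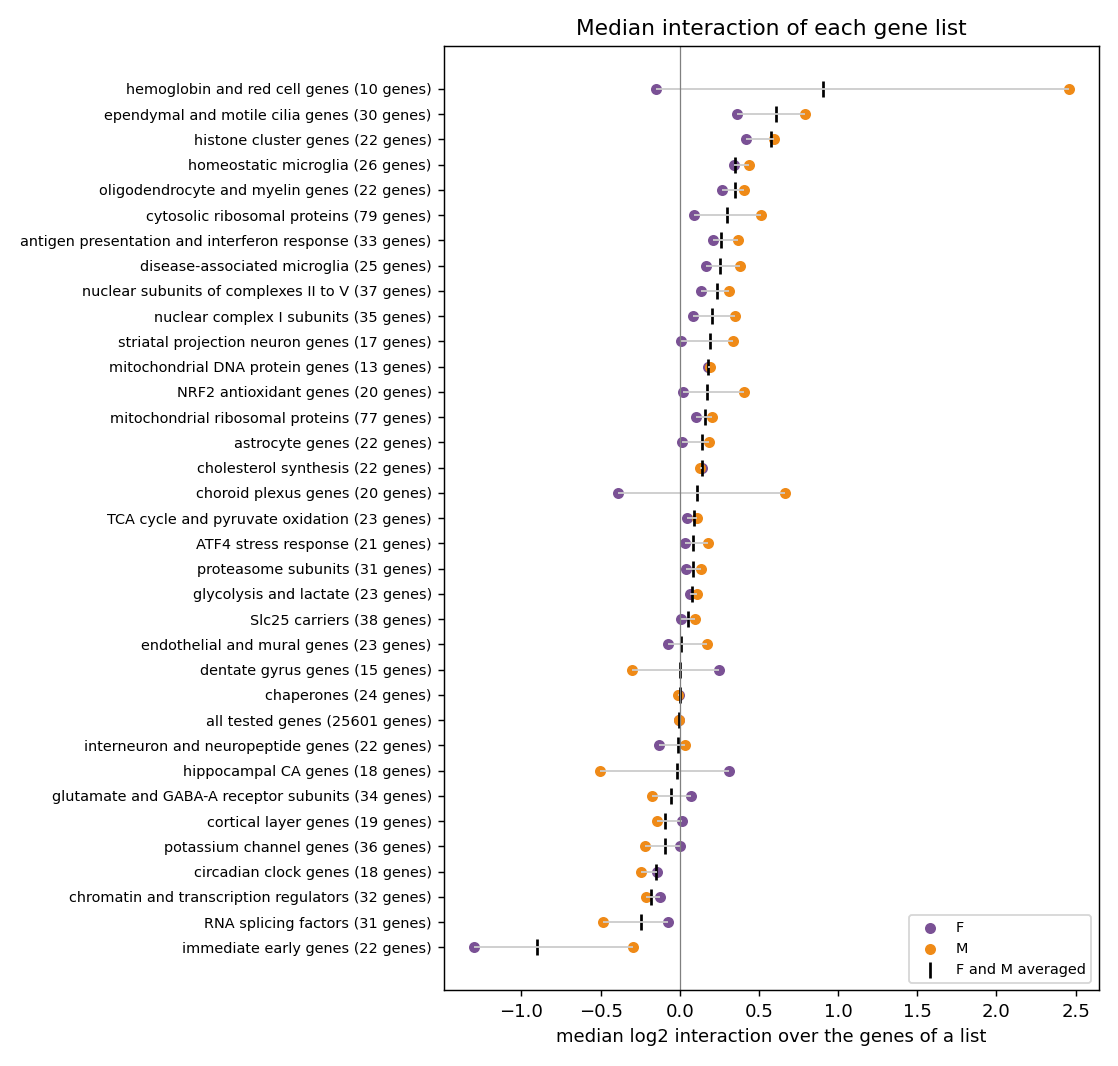
Median log2 interaction over the tested genes of each list, in F (purple), in M (orange) and averaged (black tick), with all tested genes as a row of their own. Cytosolic ribosomal proteins lie at 0.09 in F and 0.51 in M, and immediate early genes at -1.30 in F and -0.30 in M.

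Several lists had no gene that passed in edgeR for the averaged interaction. Over all 25601 genes tested, 3736 had an unadjusted p under 0.05, and list counts near that share are no result about the list. All 22 oligodendrocyte and myelin genes lay above 0 (10 unadjusted), with a median of 0.35, and their summed level was 9796 to 11320 CPM in KO vehicle M and 10900 to 18750 CPM in KO CP2 M. Of 10 hemoglobin and red cell genes all lay above 0 (5 unadjusted), with a median of -0.15 in F and 2.46 in M. Their summed level was 279.9, 629.7 and 861.1 CPM in the 3 WT vehicle M libraries and 276.2 to 317.5 CPM in KO vehicle M. The lowest WT vehicle M library thus lay within the KO vehicle M range. Histone cluster genes (22 of 39 listed were tested, 7 unadjusted) had a median of 0.57. Lists of glycolysis (7 of 23 unadjusted), the TCA cycle (4 of 23) and the ATF4 stress response (2 of 21) had medians between -0.15 and 0.14. So did chaperones (2 of 24), cholesterol synthesis (0 of 22) and the circadian clock (6 of 18). By DESeq2, 3 oligodendrocyte genes, 1 hemoglobin list gene, 1 histone gene, 1 glycolysis gene and 1 clock gene passed, and none of the other 4 lists had one. For the averaged interaction none passed in edgeR among antigen presentation (8 of 33 unadjusted), endothelial and mural (2 of 23), choroid plexus (1 of 20) and hippocampal CA genes (0 of 18). None passed either among dentate gyrus (1 of 15), striatal (0 of 17), cortical layer (1 of 19) and interneuron genes (5 of 22). The same held for potassium channel (6 of 36), proteasome (3 of 31) and Slc25 carrier genes (10 of 38). DESeq2 passed 1 gene in 4 of these 11 lists, which were antigen presentation, dentate gyrus, potassium channel and Slc25 carriers. In M alone edgeR called 1 glycolysis gene and 2 potassium channel genes below 0, and 2 TCA cycle genes, 1 proteasome gene and 1 Slc25 carrier above 0.

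All 22 immediate early genes, which neurons switch on after activity, lay below 0, and 0 passed in edgeR (10 unadjusted), 1 in DESeq2 and 3 in limma voom. Their median was -0.90, -1.30 in F and -0.30 in M. The summed level was 774.7 to 1425 CPM in KO CP2 F, 1158 to 2572 CPM in WT CP2 F and 1017 to 1915 CPM in WT vehicle F. In KO vehicle F it was 6149 CPM in library L246 and 694.8 to 1213 CPM in the other 4. In M it was 664.7 to 975.6 CPM in KO CP2, 1116 to 2209 CPM in WT CP2, 844 to 914 CPM in KO vehicle and 1073 to 1317 CPM in WT vehicle. KO M thus lay below WT M without overlap under either treatment. Without L246 the median interaction was -0.34 and 4 of the 22 genes lay above 0, so most of the size of the list's averaged interaction rested on 1 library. Fosl2, a partner of Jun and the member with the smallest p, was at -1.09 ± 0.35 (SE; adjusted p = 0.131), with a CP2 effect of 0.57 in WT and -0.52 in KO.

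Mical2, which oxidises actin, and Zbtb18, a transcriptional repressor of developing neurons, were the genes whose interaction differed between the letters. Mical2 was 200, 231, 241, 256.8 and 194 CPM in KO CP2 F and 149, 138, 175, 150 and 193 CPM in KO vehicle F, against 225, 169, 214, 221 and 200.5 CPM in KO CP2 M and 261, 248 and 278.1 CPM in KO vehicle M. Zbtb18 was 350, 310, 302.9, 360 and 280.7 CPM in KO CP2 F and 203, 168, 258, 215.6 and 239 CPM in KO vehicle F, against 276, 235, 270, 287 and 258.7 CPM in KO CP2 M and 310.7, 309 and 333 CPM in KO vehicle M. In F the KO CP2 libraries were higher than KO vehicle and in M lower, each without overlap. The WT arm also moved in M, the other way. CP2 minus vehicle in M was -0.35 in KO and 0.44 in WT for Mical2, and -0.26 and 0.29 for Zbtb18. In F it was 0.48 in KO and 0.11 in WT for Mical2, and 0.56 and 0.03 for Zbtb18. The interaction of Mical2 was 0.37 in F and -0.79 in M (difference 1.16 ± 0.20, SE; edgeR adjusted p = 0.0174), and that of Zbtb18 0.54 and -0.55 (difference 1.09 ± 0.19; adjusted p = 0.0174).

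The genes on either side of 0 differed in transcript length, a property the test did not use. The longest annotated transcript had a median of 1773 nt over the 81 genes above 0 and 4493 nt over the 102 below 0, against 2653 nt over all genes tested. Without ribosomal protein genes the median above 0 was 2124 nt. All 81 genes above 0 were protein coding, as were 72.5% of those below and 65.5% of all genes tested. Over 13930 protein-coding genes with a mean of at least 1 CPM, the median interaction was 0.18 in the shortest decile and -0.08 in the longest, with 31 called above 0 and 0 below in the shortest and 1 and 25 in the longest. In M these medians were 0.28 and -0.11, in F 0.08 and -0.06. The share of reads outside genes moved with the same groups, and its part in the length trend was not tested.

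**Figure D5:**
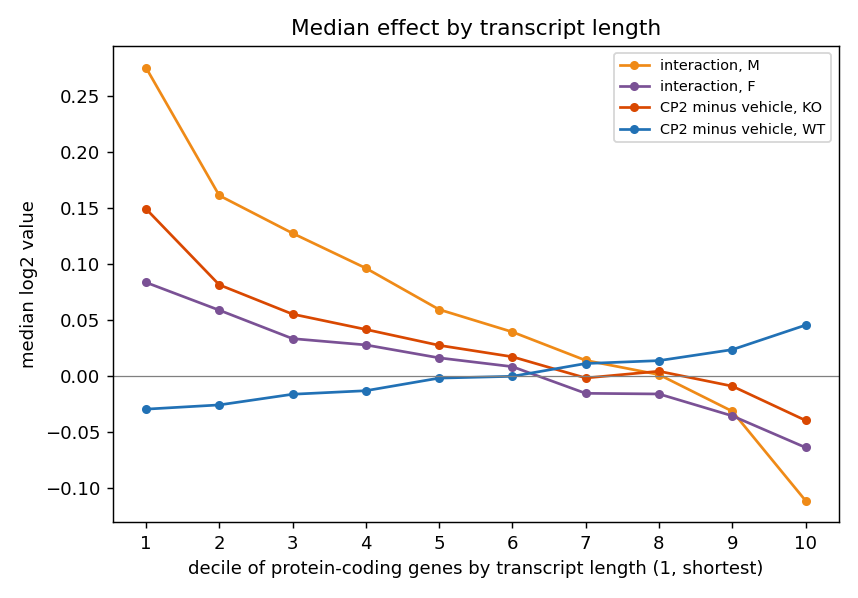
Median log2 value of protein-coding genes in deciles of transcript length, for the interaction in M and in F and for CP2 minus vehicle in KO and in WT. The interaction in M falls from 0.28 to -0.11 and CP2 in WT rises from -0.03 to 0.05.

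The number of calls moved with single libraries of both letters. Leaving out 1 library at a time gave between 0 and 435 called genes: 0 without the KO vehicle M library L322, 0 without the WT vehicle M library L285, 0 without the WT vehicle M library L300, and 435 without the WT vehicle M library L303. In the 3 fits with 0 calls between 3152 and 3328 genes had an unadjusted p under 0.05, against 3736 with all libraries. The count was 424 without L201 and 317 without L283, both F, and 391 without L298 and 326 without L267, both M. It was between 80 and 118 without any 1 of the F libraries L216, L234, L240, L278, L281, L296 and L311, and between 68 and 113 without any 1 of the M libraries L262, L263, L266, L289, L292, L299 and L319. Rps12, S100b, Dnaic2, Mdk, Abcc5 and Mirg each stayed called in 33 of the 36 fits, and their direction held in all 36. Without L266 and L291, a choice made after the data were seen, 19 of the 41 named genes called for the averaged interaction stayed called, among them Rps12, S100b, Dnaic2, Abcc5 and Mirg, and all 41 kept their direction. In that edgeR fit the adjusted p was 0.0565 for Mdk, 0.0737 for Cd180, 0.0611 for Gria2, 0.0853 for Miat and 0.0988 for Uqcrh.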

How the data were processed

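The authors deposited 1 table of raw read counts per Ensembl gene for 36 libraries (Illumina TruSeq, poly(A), per the labels). The submitters' processing notes name STAR, HTSeq and GRCm39, and no versions or settings are given in the sources used here. The 5 summary lines of the counter were left out of library sizes and gave the share of reads outside genes. Genes were filtered with filterByExpr on the 8 groups, scaled with TMM and fitted with edgeR 4.0.16 (R 4.3.3; glmQLFit, robust), with 1 coefficient per group and Benjamini-Hochberg adjustment over 25601 genes. Symbols came from a name table (52073 of 56980 identifiers matched), and transcript lengths from GENCODE M21 by identifier. The 34 lists, the members and the tests were chosen with earlier results of these data known. Named genes were Ndufs4; up to 10 each way by size (mean of at least 1 CPM) and 8 by p (at least 10 CPM) among called genes, clone names left out; up to 2 called genes or 1 other per list; and up to 3 each way per letter. Other genes named, Luc7l3 and Ddx17, complete a count of 5. Replicates were compared over 66 pairs and none agreed within sampling noise (at least 12.7 in chi-square per gene). Titles number libraries uniquely and name no pairs, so the libraries were treated as unpaired. Alternatives used DESeq2 1.42.0, limma 3.58.1 and sva 3.50.0. The fit was also run on simulated counts with a change in KO CP2 only. These held no difference between F and M and none in the share of reads outside genes, so they do not bear on either.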

Additional observations from a re-analysis of the deposited data

Results flagged for a closer look

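Over 156 groups of 5 libraries, 6 values stood apart from the rest of their group by Dixon's criterion; chance alone marks about 1 in 20 groups. Library L246 of KO vehicle F had 6149 CPM of summed immediate early genes, against 1213 CPM in the next library, and 81.6 CPM of Fosl2 against 29.9 CPM. L298 of KO CP2 M had 99.3 CPM of Uqcrh, under the next at 128 CPM. L281 of KO vehicle F had 295.3 CPM of Plekhb1, under the next at 395 CPM. Among WT vehicle F libraries, L277 had 118 CPM of S100b (next 143 CPM), and L252 had 15170 CPM of summed ribosomal protein genes (next 16220 CPM). The interaction differed between the letters for Mical2, by 1.16, and for Zbtb18, by 1.09, with F above M in both; neither was called with the share covariate, the hippocampal CA score or the surrogate variables, nor without L322, L285 or L300.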

How the results depend on the processing

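The averaged interaction (183 genes) fell to 0 with a covariate for the share of reads outside genes (1870 unadjusted), 0 with 2 surrogate variables (1749) and 0 with the letter as an additive term (3399), and to 99 with title number as a covariate. It rose to 582 with DESeq2 and 921 with limma voom and sample quality weights. The interaction in M (507) became 0, 0 and 100 with the share, the surrogate variables and a hippocampal CA score, and 1397 in M samples alone, 1099 by DESeq2 and 3218 by voom. In F (0), the fit without the robust option gave 1 and DESeq2 4. F minus M (2) became 0, 0 and 1 (neither of the 2) with those 3 covariates, 93 by DESeq2 and 140 by voom. As a percent of the 25601 genes tested in the report, whatever number a setting tested, CP2 in KO (3.91%) became 0% with the share and 6.17% by DESeq2, and KO against WT with vehicle (6.67%) 1.14% with the share. Leaving out L266 and L291 together, chosen after seeing the data, gave 33 genes (32 of them among the 183) and 89 in M. Leaving out 1 library at a time gave 0 to 435 genes for the averaged interaction, 33 to 865 in M, 0 to 0 in F, 0 to 79 for F minus M, 0.742% to 5.99% of those 25601 genes for CP2 in KO, 0% to 0% for CP2 in WT, 2.85% to 8.47% for KO against WT with vehicle and 8.87% to 12.4% with CP2. RLE scaling and no filter on low counts kept 40 and 39 of the 43 called genes that are named. None of the 43 changed direction under any alternative. Mvk, not called (0.24), turned to -0.055 with the share and to -0.066 with the surrogate variables. The causes were not tested. No paired analysis was possible because the labels name no pairs.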
